A study of Mus musculus with 7 samples.

Results

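The CXC chemokines Cxcl1, Cxcl2, Cxcl3, Cxcl5, Cxcl9, Cxcl10, Cxcl12, Cxcl14 and Cxcl16, together with the neutrophil receptor Cxcr2, were followed across skin cells sorted from knockout and control mice of Zfp750, an epidermal transcription factor. The members were taken by gene name, and all 10 were found among the 25322 genes of the deposited table of normalized counts. RNA-seq of sorted cells in bulk, on day 36, gave 4 knockout libraries (Zfp750_KO) and 3 control libraries. Zfp750_KO mice were ZNF750 fl/fl, meaning that both copies of the gene could be deleted by Cre. Of the controls, 2 were ZNF750 wt/fl and 1 was ZNF750 wt/wt, so that the first kind could lose 1 copy. All mice of both groups carried Lrig1-CreERT2 +/- (written Lrig1-CreER in some labels), a tamoxifen-inducible Cre under control of Lrig1, which marks epidermal stem cells of the upper hair follicle. All mice of both groups received 4-hydroxytamoxifen as pups, from day 4 to 7 or from day 5 to 8. The Rosa26 allele was +/- in all but 1 Zfp750_KO mouse, given as Rosa26 -/-. The sort was for tdTomato, a red fluorescent protein. Libraries are called by the short names of their columns, 1M, 2M, 3F and 6F for Zfp750_KO and 4F, 4M and 7F for control, which state the group but could not be tied to single labelled mice. The labels number the samples and give more than 1 genotype within a group, but do not say that every library is a separate animal. The p-values below therefore measure only how far these libraries spread, which may be technical.

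CXC chemokines are small secreted proteins that guide leukocytes along concentration gradients through G protein-coupled receptors. Cxcl1, Cxcl2, Cxcl3 and Cxcl5 bind Cxcr2 and draw neutrophils into inflamed skin, and they are induced through NF-kappaB by cytokines such as IL-17, IL-1 and TNF. Cxcl9 and Cxcl10 are induced by interferons and draw activated T cells through Cxcr3. Cxcl12 and Cxcl14 are made in resting skin, and Cxcl16 is a membrane-anchored ligand of Cxcr6 that is shed by the proteases Adam10 and Adam17.

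The neutrophil ligands sit side by side. Cxcl5, Cxcl3, Cxcl1 and Cxcl2 lie in this order on the plus strand of chromosome 5, within 147 kb of the deposited positions. The platelet chemokine genes Ppbp and Pf4 lie between Cxcl5 and Cxcl3, and no listed gene but Cxcl1 lies between Cxcl3 and Cxcl2. Cxcl9 and Cxcl10 are 18.6 kb apart on the minus strand of the same chromosome. Cxcl12 is on chromosome 6, Cxcl14 on chromosome 13, Cxcl16 on chromosome 11 and Cxcr2 on chromosome 1.

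Promoter sequences from RefSeq (build GRCm38.p6) were found for 8 of the 10 members, not for Cxcl5 or Cxcl16. Those of Cxcl1, Cxcl2 and Cxcl3 are shown because they share a motif while the genes differed in level between libraries, and that of Cxcl10 because it holds the motif of interferon-driven genes. Capitals mark an exact form of the NF-kappaB motif, GGGAA followed directly by TTTCC, in the first 3 sequences. In that of Cxcl10 they mark the interferon-type motif, GAAA, NN and GAAA in a row. Each sequence ends before the annotated transcript start.
Cxcl1, chr5:90891091-90891240, plus strand: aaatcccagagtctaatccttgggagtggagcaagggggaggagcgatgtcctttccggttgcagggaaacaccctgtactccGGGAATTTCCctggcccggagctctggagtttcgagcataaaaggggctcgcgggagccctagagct
Cxcl2, chr5:90903721-90903870, plus strand: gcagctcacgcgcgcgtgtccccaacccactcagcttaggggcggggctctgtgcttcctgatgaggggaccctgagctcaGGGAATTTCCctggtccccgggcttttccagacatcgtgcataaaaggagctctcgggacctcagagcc
Cxcl3, chr5:90785951-90786100, plus strand: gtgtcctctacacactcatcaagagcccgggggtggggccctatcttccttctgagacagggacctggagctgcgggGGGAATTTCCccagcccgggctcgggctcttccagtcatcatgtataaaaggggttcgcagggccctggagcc
Cxcl10, chr5:92348890-92349102, minus strand: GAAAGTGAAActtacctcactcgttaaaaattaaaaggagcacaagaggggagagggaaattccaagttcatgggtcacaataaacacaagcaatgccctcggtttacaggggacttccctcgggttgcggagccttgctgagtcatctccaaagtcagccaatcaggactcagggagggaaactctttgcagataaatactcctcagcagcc
Both motifs, which do not overlap one another in these windows, were searched on both strands in the 250 bases before each annotated start. The exact NF-kappaB form occurred in 28 of 32851 promoters, or 0.0852%, and among the 8 members only in Cxcl1, Cxcl2 and Cxcl3. Other forms of the NF-kappaB motif were not searched. A promoter without the exact form, such as that of Cxcl10, may therefore still hold an NF-kappaB motif. The interferon-type motif occurred in Cxcl10 and Cxcl14 and in 2.98% of all promoters. These letters are matches in a window and not measured binding sites.

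The libraries differed widely in leukocyte transcripts within both groups. The recovered totals were 9.55 to 15.2 M reads in Zfp750_KO and 9.09 to 17.1 M in control. Zfp750 itself (ENSMUSG00000039238, chromosome 11) was at normalized counts of 48.9, 45.4, 10.1 and 29.6 in Zfp750_KO libraries 1M, 2M, 3F and 6F, against 335, 51.2 and 61.9 in control libraries 4F, 4M and 7F. Every Zfp750_KO library was below every control, 1M and 4M only narrowly. A macrophage score was computed as the mean log2 level over 23 genes of macrophages and monocytes. It was 7.22 and 6.87 in Zfp750_KO 1M and 2M and 11.03 and 10.73 in Zfp750_KO 3F and 6F. In control it was 5.84 in 4F, and 10.02 and 10.25 in 4M and 7F. Ptprc, the leukocyte antigen CD45, moved with the score, from 39.2 to 1247 per M of the library total in Zfp750_KO and from 4.46 to 700 per M in control. The summed level of 7 keratinocyte markers was 204 to 2098 per M in Zfp750_KO and 227 to 2258 per M in control. That of 7 fibroblast markers was 11222 to 75934 per M in Zfp750_KO and 64542 to 141183 per M in control, so the fibroblast sum exceeded the keratinocyte sum in every library. A pair of fits was made with limma over 18141 tested genes on log2(value + 11.9), the first with the group as its only term and the second with the macrophage score as a further term. Because 11.9 is added, such differences are smaller than the true log2 ratio where values are low. In bulk libraries, fewer cells of a type and less RNA per cell cannot be told apart.

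Cxcl5 (ENSMUSG00000029371), a ligand of Cxcr2, separated the groups without overlap and had the largest difference of the members. Its normalized counts were 131, 131, 77.8 and 51.0 in Zfp750_KO libraries 1M, 2M, 3F and 6F, against 1.55, 0 and 2.25 in control libraries 4F, 4M and 7F. The means were 97.8 ± 40.1 (SD, n = 4) in Zfp750_KO and 1.27 ± 1.15 (SD, n = 3) in control. Every Zfp750_KO library was above every control, whether its macrophage score was low or high. These values stand for 126, 136, 69 and 74 reads in the Zfp750_KO libraries, against 2, 0 and 2 reads in the controls, so the gene was near the limit of detection in all controls. A count of 0 in control 4M allows a normalized count of up to 3.94. Pooled over the libraries of a group, 405 reads stood against 4, a ratio of 68.7 (95% Clopper-Pearson interval 26.6 to 253, counting error only).

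In the fit with the group alone, none of the 9 tested members passed an adjusted p of 0.05, as none of the 18141 genes did in limma (0%). At an unadjusted p under 0.05, 5.83% of all genes differed, 2.18% higher and 3.65% lower. Cxcl5 had a log2 difference of 2.98 ± 0.35 (SE), an unadjusted p of 4.05e-05 and an adjusted p of 0.104 there, and was second of all genes by p. It passed with limma's array weights (3.31, adjusted p = 0.0028), where 20.9% of all genes did. With the macrophage score, 2 of the 9 tested members rose, Cxcl5 and Cxcl16, and none fell, where 3.54% of all genes passed, 1.37% higher and 2.18% lower. Cxcl5 rose by 3.01 ± 0.27 on the log2 scale (SE, limma adjusted p = 0.0033). It met the filter of 1 per M in at least 3 libraries through Zfp750_KO libraries alone, so it had to differ to be tested. Its p-values and its rank therefore support nothing beyond the description of its values. Of the 9 tested members 1, Cxcl5, did not overlap between the groups, where 7.1% of all tested genes did not, 3.19% higher and 3.91% lower. The median log2 difference of the 9 tested members was 0.34 in both fits, against 0.02 over all tested genes, and 6 of the 9 were on the higher side, where 53.3% of all genes were with the group alone and 52.7% with the score.

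**Figure D1:**
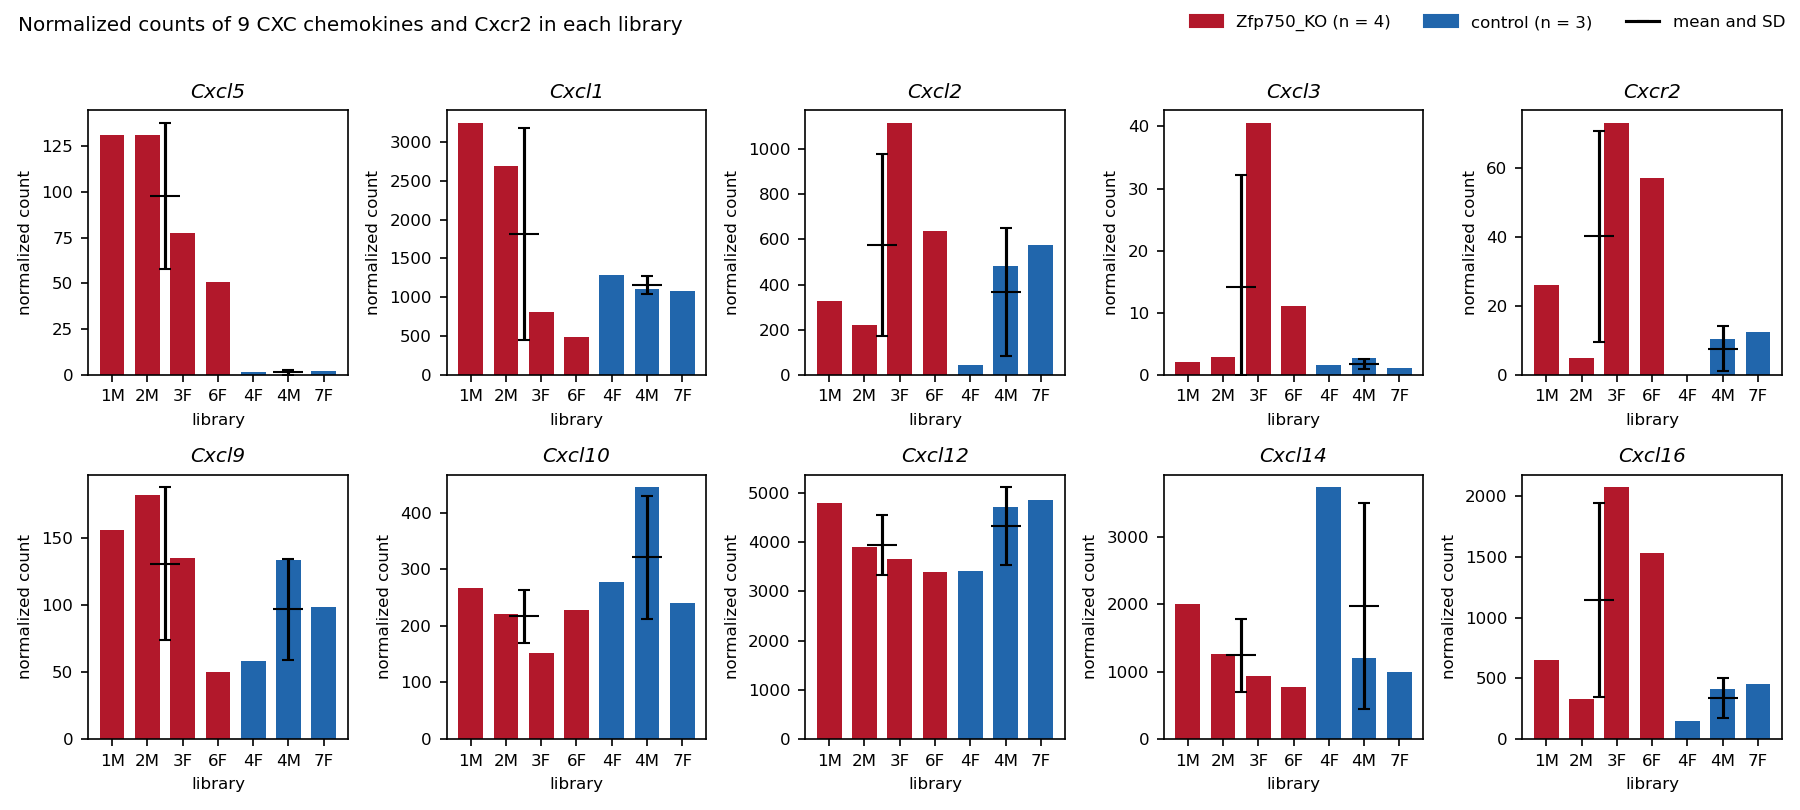
Normalized counts (vertical axes, linear, starting at 0, a separate scale for each gene) of the 10 genes in the 4 Zfp750_KO libraries (red) and the 3 control libraries (blue). Black marks give the mean and SD of each group, with the lower bar ended at 0. Cxcl5 is at 51.0 or above in each Zfp750_KO library and at 2.25 or below in each control.

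The genes whose profile over the 7 libraries was most like that of Cxcl5 were Chl1, a neural adhesion molecule, Prdm1, a transcriptional repressor, and Smim3, a small membrane protein. Likeness was the root-mean-square difference of the log2 values, each gene centred on its own mean, and it was 0.32 for Chl1, 0.48 for Prdm1 and 0.48 for Smim3. Chl1 was at normalized counts of 1949, 1345, 752 and 930 in Zfp750_KO libraries 1M, 2M, 3F and 6F, against 139, 184 and 174 in control libraries 4F, 4M and 7F. As with Cxcl5, the Zfp750_KO libraries 1M and 2M held the higher values. These genes were chosen for their likeness, and no test was made of it.

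Cxcl1 (ENSMUSG00000029380), the neutrophil ligand with the highest level per kb of transcript, did not differ between the groups by a common amount. Its normalized counts were 3246, 2696, 807 and 492 in Zfp750_KO libraries 1M, 2M, 3F and 6F, against 1287, 1105 and 1075 in control libraries 4F, 4M and 7F. Zfp750_KO 1M and 2M lay above all controls and 3F and 6F below all of them, while the controls spanned 1.20-fold. The means were 1810 ± 1365 (SD, n = 4) in Zfp750_KO and 1156 ± 114 (SD, n = 3) in control. The log2 difference was 0.25 ± 0.65 (SE, limma adjusted p = 1.0) with the group alone, 1.17 (adjusted p = 0.0514) with the group alone and array weights, and 0.33 ± 0.40 (adjusted p = 0.749) with the score.

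In a further limma fit, chosen after seeing the data, each group had its own slope on the score. The slope of Cxcl1 was -0.56 log2 units per unit of the score in Zfp750_KO and -0.06 in control. The difference was -0.51 ± 0.10 (SE, limma adjusted p = 0.00904), and Cxcl1 was the only one of 9 members past the threshold, where 6.03% of all genes were. The control slope rests on 4F, the only control with a low score: without it the difference was -0.38 (adjusted p = 1.0). It was -0.50 (adjusted p = 0.0521) without control 4M and -0.46 (adjusted p = 0.581) with a term for the letters M and F of the column names. Both Zfp750_KO libraries of low score carry the letter M and both of high score the letter F, so letter and score cannot be told apart within that group.

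Without the 3 libraries of lowest score (Zfp750_KO 1M and 2M and control 4F), 2 libraries stood against 2. The limma fit on them had no score term. Their scores were 11.03 and 10.73 in Zfp750_KO and 10.02 and 10.25 in control, so group and score cannot be told apart there. In that limma fit Cxcl1 fell by 0.78 ± 0.22 on the log2 scale (SE, limma adjusted p = 0.042), and Cxcl16 and Cxcr2 rose. Of 8 members tested there, 2 rose and 1 fell, where 12.2% of 17214 genes passed, 5.14% higher and 7.02% lower. Cxcl5 was above the filter in only 2 of these libraries and was not tested.

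Cxcl2 (ENSMUSG00000058427), a ligand made by macrophages and neutrophils as well as by stroma, was higher at high scores in both groups. It stood at normalized counts of 325, 219, 1117 and 637 in Zfp750_KO libraries 1M, 2M, 3F and 6F, against 42.6, 480 and 576 in control libraries 4F, 4M and 7F. The groups overlapped, and within both the libraries with high scores were the higher ones. The log2 difference was 0.96 ± 0.91 (SE, limma adjusted p = 1.0) with the group alone and 0.81 ± 0.29 (adjusted p = 0.189) with the score, and it was -0.14 with the group alone without control 4F. The macrophage cytokine gene Tnf was among the 3 genes most like Cxcl2, with a root-mean-square difference of 0.29, after Pde1b (0.27) and the lymph node homing receptor Ccr7 (0.28).

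Cxcl3 (ENSMUSG00000029379) was the lowest ligand in Zfp750_KO. It was at 2.08, 2.90, 40.6 and 11.1 in Zfp750_KO libraries 1M, 2M, 3F and 6F, against 1.55, 2.63 and 1.13 in control libraries 4F, 4M and 7F, which is 1 to 36 reads. Its higher values were in Zfp750_KO 3F and 6F, and the other 5 libraries were alike at 3 reads or fewer. It did not meet the filter, and with every listed gene in the fit its log2 difference was 0.71 ± 0.44 (SE, limma adjusted p = 0.984). Cxcl2 and Cxcl3 transcripts share an identical run of 110 bases, against at most 23 for any other pair of members. How the counting assigned reads from that run is not given in the sources used here, so part of the Cxcl3 count may belong to Cxcl2.

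Set on a common scale per kb of transcript, the 4 neutrophil ligands summed to 3666, 3033, 1537 and 902 in Zfp750_KO libraries 1M, 2M, 3F and 6F, against 1376, 1421 and 1441 in control libraries 4F, 4M and 7F. Cxcl1 made up most of that sum in all 7 libraries. Its share was 92.9%, 93.3%, 55.1% and 57.2% in Zfp750_KO libraries 1M, 2M, 3F and 6F, against 98.2%, 81.6% and 78.3% in control libraries 4F, 4M and 7F. Cxcl5 contributed 2.27% to 3.59% in Zfp750_KO and 0% to 0.0991% in control. Its difference between the groups was thus large as a ratio and small as a share of these ligands.

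**Figure D2:**
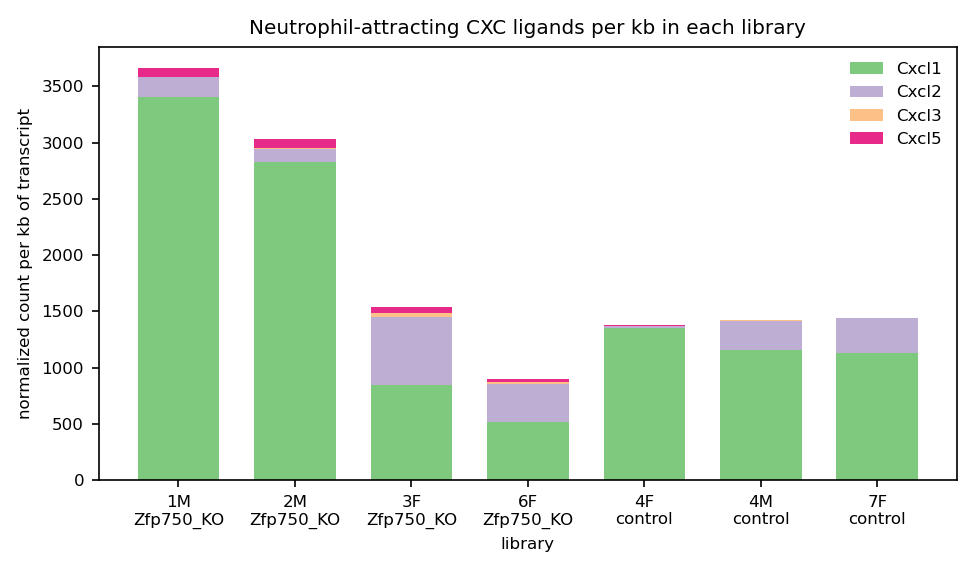
Summed level of Cxcl1, Cxcl2, Cxcl3 and Cxcl5 in each library, as normalized count per kb of the longest protein-coding transcript (vertical axis, linear), with Zfp750_KO libraries on the left and controls on the right. Cxcl1 is the largest segment in every bar, and Cxcl5, at 2.27% to 3.59% of the Zfp750_KO bars and at most 0.0991% of the control bars, is the top band.

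Cxcr2 (ENSMUSG00000026180), the receptor of these ligands and a surface protein of neutrophils, had few reads. Its normalized counts were 26.0, 4.83, 73.3 and 57.2 in Zfp750_KO libraries 1M, 2M, 3F and 6F, against 0, 10.5 and 12.4 in control libraries 4F, 4M and 7F. The groups overlapped through Zfp750_KO 2M alone, and the highest values were in 3F and 6F. The log2 difference was 1.24 ± 0.59 (SE, limma adjusted p = 0.92) with the group alone and 1.15 ± 0.31 (adjusted p = 0.082) with the score. With the group alone and without the 3 libraries of lowest score it passed, at 1.72 ± 0.33 (adjusted p = 0.00606). The Zfp750_KO libraries left in that fit also had higher scores than the controls left in it. With the group alone and array weights the difference was 0.20 (adjusted p = 0.723).

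The other neutrophil markers were mostly low. Of 13 genes 9 were listed, and Ly6g, Elane, Retnlg and Camp were not listed. Their summed level was 7.77 to 94.2 per M in Zfp750_KO and 1.47 to 17.3 per M in control, and in the 4 libraries of high score most of it was Csf3r, a colony-stimulating factor receptor that monocytes also carry. S100a8, an alarmin of neutrophils and stressed keratinocytes, was at normalized counts of 49.9, 7.73, 27.1 and 14.5 in Zfp750_KO libraries 1M, 2M, 3F and 6F, against 2.32, 1.31 and 5.62 in control libraries 4F, 4M and 7F. Its groups did not overlap, and its log2 difference with the score was 1.16 ± 0.38 (SE, limma adjusted p = 0.148). Its partner S100a9 was at normalized counts of 4.83 to 10.1 in Zfp750_KO and 0 to 1.12 in control, and the myeloperoxidase gene Mpo was at 0, 0, 3.38 and 28.9 in Zfp750_KO libraries 1M, 2M, 3F and 6F, against 0.774, 10.5 and 11.2 in control libraries 4F, 4M and 7F. Fpr1, a formyl peptide receptor, was at 3.44 to 25.9 in Zfp750_KO and 14.7 to 19.7 in control, with a log2 difference of -0.21 ± 0.31 with the score (SE, limma adjusted p = 0.807). With the score, 1 of 5 tested genes rose and none fell, where 1.37% of all tested genes rose and 2.18% fell. The neutrophil gene that rose was Mmp8, a collagenase of neutrophils, by 2.28 ± 0.28 on the log2 scale (SE, limma adjusted p = 0.00422). It was at normalized counts of 60.3, 46.4, 115 and 52.3 in Zfp750_KO libraries 1M, 2M, 3F and 6F, against 0, 2.63 and 9.0 in control libraries 4F, 4M and 7F. Mmp8 was higher in every Zfp750_KO library than in any control. Like Cxcl5, Mmp8 and S100a8 met the filter through Zfp750_KO libraries alone, so they had to differ to be tested, and their values support nothing beyond the description. The part of neutrophils in the Cxcr2 and Cxcl2 levels was not tested.

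Cxcl9 and Cxcl10, the interferon-induced ligands of Cxcr3, did not separate the groups. Cxcl9 (ENSMUSG00000029417) was at normalized counts of 156, 183, 135 and 50.3 in Zfp750_KO libraries 1M, 2M, 3F and 6F, against 58.1, 134 and 99.0 in control libraries 4F, 4M and 7F. Its log2 difference was 0.34 ± 0.46 (SE, limma adjusted p = 1.0) with the group alone and 0.34 ± 0.41 (adjusted p = 0.75) with the score. The means of 131 ± 57.2 (SD, n = 4) in Zfp750_KO and 97 ± 38.0 (SD, n = 3) in control differed by less than the spread within the groups.

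Cxcl10 (ENSMUSG00000034855) was at normalized counts of 266, 221, 152 and 227 in Zfp750_KO libraries 1M, 2M, 3F and 6F, against 277, 445 and 241 in control libraries 4F, 4M and 7F. The groups overlapped only in that Zfp750_KO 1M was above control 7F. The log2 difference was -0.52 ± 0.28 (SE, limma adjusted p = 1.0) with the group alone and -0.51 ± 0.25 (adjusted p = 0.351) with the score. The whole deposited span of Cxcl10 lies inside Art3 on the opposite strand, and the strand setting of the counting is not given in the sources used here. Art3 was at 19.1% to 44.2% of the Cxcl10 count over the libraries. Its normalized counts were 51.0, 58.0, 48.5 and 50.3 in Zfp750_KO libraries 1M, 2M, 3F and 6F, against 122, 151 and 101 in control libraries 4F, 4M and 7F. Art3 was thus lower in every Zfp750_KO library than in any control, and its part in the Cxcl10 counts was not tested.

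Of the 10 listed genes of the interferon gamma path none passed in either limma fit. At an unadjusted p under 0.05 with the group alone, 1 was higher and 0 lower, where 2.18% of all genes were higher and 3.65% lower. With the score, 2 were higher and 1 lower, where 8.35% of all genes were higher and 9.01% lower. Jak1, a receptor kinase, averaged 3894 ± 502 (SD, n = 4) in Zfp750_KO and 3846 ± 337 (SD, n = 3) in control. Irf1, a transcription factor induced by interferon, averaged 2522 ± 789 in Zfp750_KO and 2807 ± 508 in control. Cxcr3 was at 2.08, 10.6, 68.8 and 79.9 in Zfp750_KO libraries 1M, 2M, 3F and 6F, against 0, 32.8 and 48.4 in control libraries 4F, 4M and 7F, and did not pass (log2 difference with the score 0.16 ± 0.28, SE, limma adjusted p = 0.839). It was higher at high scores in both groups.

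**Figure D3:**
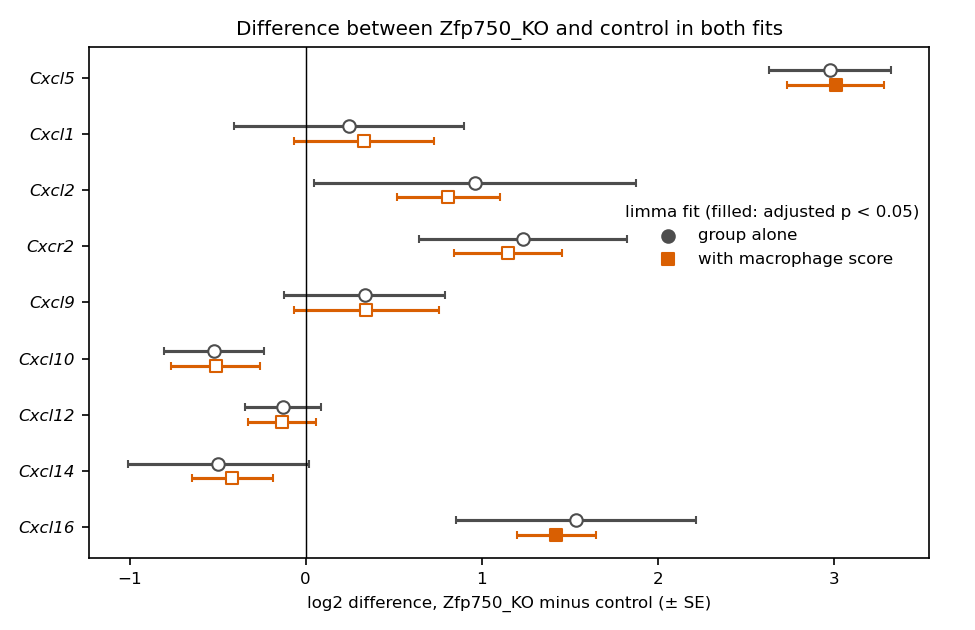
Difference between Zfp750_KO and control on the log2(value + 11.9) scale (horizontal axis, with SE bars) for the 9 tested members, from the limma fit with the group alone (grey circles) and that with the macrophage score (orange squares). Filled symbols mark an adjusted p under 0.05, which Cxcl5 and Cxcl16 reach with the score and no member reaches without it. Cxcl5 met the filter through Zfp750_KO libraries alone, so its filled symbol adds no support.

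Cxcl12 (ENSMUSG00000061353), a chemokine of fibroblasts and endothelium that retains Cxcr4-bearing cells, varied least of the members over the 7 libraries. It stood at 4795, 3905, 3659 and 3394 in Zfp750_KO libraries 1M, 2M, 3F and 6F, against 3415, 4709 and 4848 in control libraries 4F, 4M and 7F. The highest and lowest libraries were 1.41-fold apart in Zfp750_KO and 1.42-fold in control. The log2 difference was -0.13 ± 0.22 (SE, limma adjusted p = 1.0) with the group alone and -0.13 ± 0.19 (adjusted p = 0.799) with the score.

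Its receptors were less even. Cxcr4, the signalling receptor, was at normalized counts of 627, 646, 3969 and 1975 in Zfp750_KO libraries 1M, 2M, 3F and 6F, against 210, 725 and 1100 in control libraries 4F, 4M and 7F. It rose by 1.12 ± 0.22 on the log2 scale with the score (SE, limma adjusted p = 0.0286). With the group alone and without the 3 libraries of lowest score it rose by 1.64 (adjusted p = 0.00381). The Zfp750_KO libraries left there also had higher scores than the controls left. The call with the score was lost without Zfp750_KO 2M, without control 4M, without control 7F and without the 3 libraries of lowest score. Ackr3, a receptor that removes Cxcl12, was at 2349, 2700, 1403 and 565 in Zfp750_KO libraries 1M, 2M, 3F and 6F, against 2952, 3291 and 3241 in control libraries 4F, 4M and 7F. Each Zfp750_KO library was below each control, but the log2 difference of -1.02 ± 0.39 with the score did not pass (SE, limma adjusted p = 0.213). Dpp4, a protease that inactivates Cxcl12 and Cxcl10, was likewise below every control in every Zfp750_KO library, with a log2 difference of -1.26 ± 0.29 (SE, limma adjusted p = 0.0506).

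Cxcl14 (ENSMUSG00000021508), a chemokine of resting epithelium and fibroblasts, was highest in the library of lowest score. It stood at normalized counts of 2002, 1261, 943 and 775 in Zfp750_KO libraries 1M, 2M, 3F and 6F, against 3738, 1204 and 993 in control libraries 4F, 4M and 7F. Control 4F, which also had the highest keratinocyte and fibroblast marker sums, stood apart, and the other 6 libraries overlapped between the groups. The log2 difference was -0.50 ± 0.52 (SE, limma adjusted p = 1.0) with the group alone, 0.09 without control 4F, and -0.42 ± 0.23 (adjusted p = 0.414) with the score.

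Cxcl16 (ENSMUSG00000018920), the ligand of Cxcr6, was the other member called higher in the fit with the score. Its normalized counts were 651, 328, 2073 and 1532 in Zfp750_KO libraries 1M, 2M, 3F and 6F, against 149, 415 and 456 in control libraries 4F, 4M and 7F. The groups overlapped through Zfp750_KO 2M. Zfp750_KO 1M and 2M were above control 4F, and Zfp750_KO 3F and 6F above control 4M and 7F, but in both sets the Zfp750_KO libraries also had the higher scores. With the score the log2 difference was 1.42 ± 0.22 (SE, limma adjusted p = 0.0112), against 1.54 ± 0.68 (adjusted p = 0.882) with the group alone. With the group alone and without the 3 libraries of lowest score it was 2.00 ± 0.19 (adjusted p = 0.000192), and with the group alone and array weights it was 0.25 (adjusted p = 0.661). With the score, the call was lost without control 4M (1.34, adjusted p = 0.0807), without control 7F (1.35, adjusted p = 0.0788) and without the 3 libraries of lowest score (1.15, adjusted p = 0.402). Zmynd15 overlaps 553 bases of the Cxcl16 span on the opposite strand and stood at 9.05% to 19.6% of the Cxcl16 count. Like Cxcl16, it was highest in Zfp750_KO 3F and 6F, at normalized counts of 359 and 270. It was at 59.0 and 45.6 in Zfp750_KO 1M and 2M, and at 14.7, 81.4 and 73.3 in control 4F, 4M and 7F. Its part in the Cxcl16 counts was not tested.

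Cxcr6, a receptor of T cell subsets, differed in the same direction as its ligand. It was at normalized counts of 87.3, 76.3, 252 and 114 in Zfp750_KO libraries 1M, 2M, 3F and 6F, against 7.74, 40.7 and 70.9 in control libraries 4F, 4M and 7F, and the groups did not overlap. It rose by 1.48 ± 0.29 on the log2 scale with the score (SE, limma adjusted p = 0.0284), and lost the call in 6 of 17 alternative settings, 5 of which left out 1 library. The gene most like Cxcl16 over the 7 libraries was Trac, a constant chain of the T cell receptor, with a root-mean-square difference of 0.17, followed by the scavenger receptor gene Olr1 (0.26) and Hs3st3b1 (0.27). The summed level of 6 T cell markers was 12.2 to 101 per M in Zfp750_KO and 2.05 to 35.8 per M in control, and the groups overlapped for each of them. With the score, Trac rose by 1.22 ± 0.26 on the log2 scale (SE, limma adjusted p = 0.0379), a call kept in 8 of 16 alternative settings. At an unadjusted p under 0.05 with the score, 4 of the 6 markers were higher and 0 lower, where 8.35% of all genes were higher and 9.01% lower. With the group alone, 0 of the 6 were higher and 0 lower, where 2.18% of all genes were higher and 3.65% lower. The part of T cells in the Cxcr6 and Cxcl16 results was not tested. Adam10 and Adam17, the sheddases, did not pass, with log2 differences of 0.07 ± 0.16 and 0.28 ± 0.15 with the score (SE, limma adjusted p = 0.891 and 0.404).

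**Figure D4:**
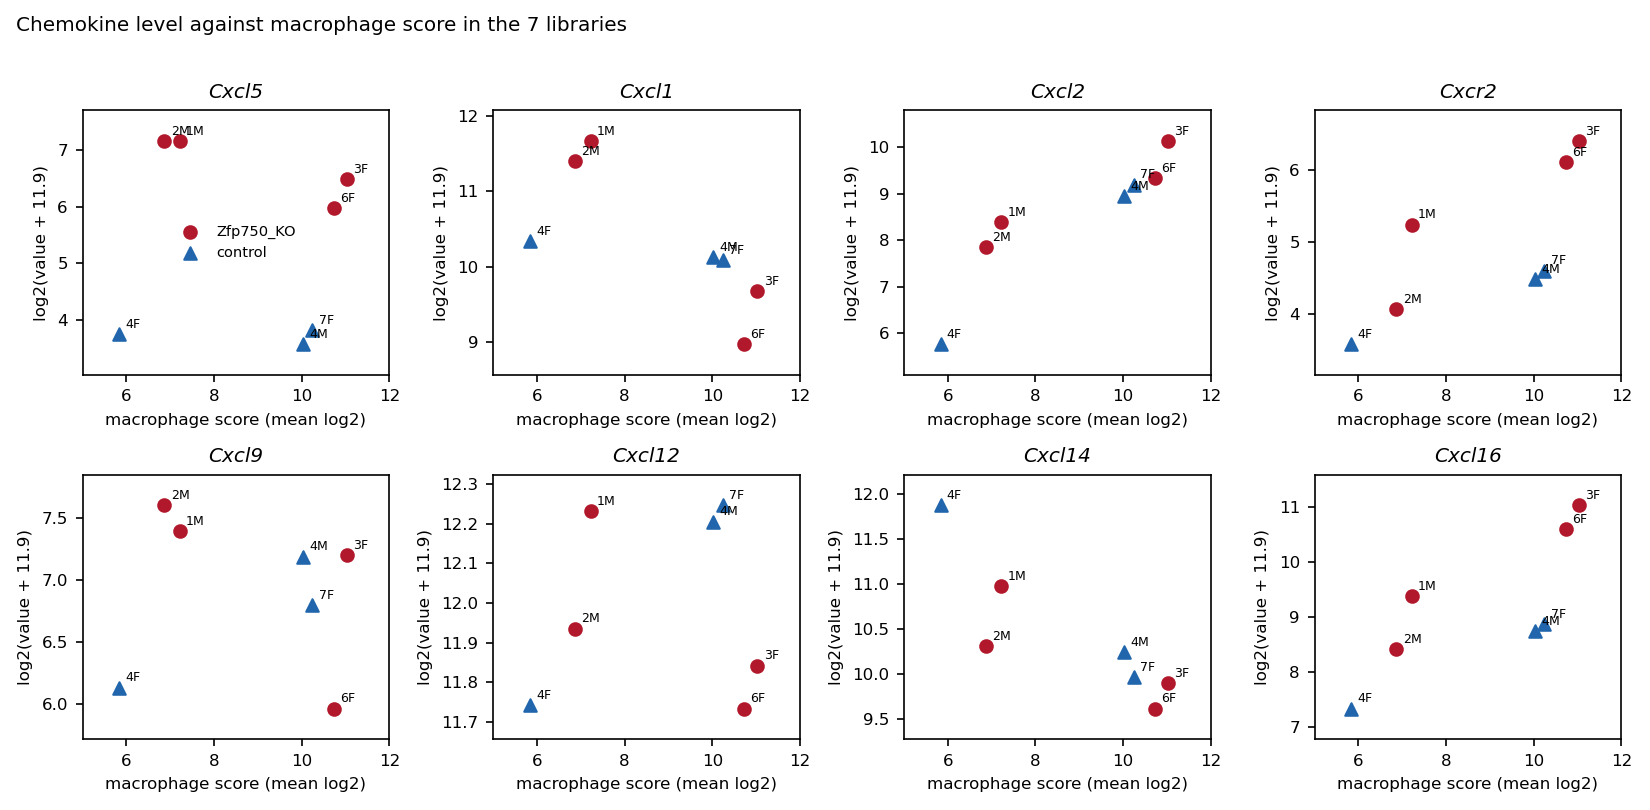
Level of 8 members as log2(value + 11.9) (vertical axes, a separate scale for each gene) against the macrophage score over 23 genes (mean log2 level, horizontal axes), in Zfp750_KO (red circles) and control (blue triangles) libraries. Cxcl5 is apart from control at low and high scores, Cxcl2, Cxcr2 and Cxcl16 are higher at high scores, and Cxcl1 in Zfp750_KO is lower at high scores.

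Per kb of transcript, the order of the members' mean levels in Zfp750_KO was Cxcl1, Cxcl12, Cxcl14, Cxcl16, Cxcl2, Cxcl10, Cxcl5, Cxcl9, Cxcl3 and Cxcr2. In control it was Cxcl1, Cxcl14, Cxcl12, Cxcl10, Cxcl2, Cxcl16, Cxcl9, Cxcr2, Cxcl3 and Cxcl5. Cxcl5 was thus at rank 7 in each Zfp750_KO library and at rank 9 or 10 in each control. Its mean level per kb was 62.1 ± 25.5 (SD, n = 4) in Zfp750_KO and 0.804 ± 0.731 (SD, n = 3) in control. Cxcl1 was at 1899 ± 1432 per kb in Zfp750_KO and 1213 ± 120 in control. It was at rank 2 in control 4F, rank 3 in Zfp750_KO 6F and rank 1 in the others. In control, Cxcl14 was above Cxcl12 in 4F alone. Their control means, 1083 ± 836 and 768 ± 140 per kb, did not differ beyond their spread. Neighbours such as Cxcl12 and Cxcl14 in Zfp750_KO, at 700 ± 108 and 682 ± 297 per kb, did not differ beyond their spread. Cxcl14 was above Cxcl12 there in 1M alone. Cxcl5 and Cxcl9, at 62.1 ± 25.5 and 45.3 ± 19.8 per kb in Zfp750_KO, overlapped in range but kept their order within each library. Cxcl5 was at 83.2, 83.4, 49.4 and 32.4 per kb in 1M, 2M, 3F and 6F, against 54.0, 63.2, 46.8 and 17.4 for Cxcl9. The exon lengths are of GENCODE M21, which may not be the annotation that was counted.

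Among the 13 other CXC ligands and receptors 10 were listed and 8 tested, and with the score 2 rose and 1 fell, where 1.37% of all tested genes rose and 2.18% fell. Those that rose were Cxcr4 and Cxcr6. The fall was in Ackr1, a decoy receptor of venules and red cells that binds Cxcl1, Cxcl5 and other inflammatory chemokines. Ackr1 was at normalized counts of 168, 126, 204 and 209 in Zfp750_KO libraries 1M, 2M, 3F and 6F, against 712, 560 and 570 in control libraries 4F, 4M and 7F. All Zfp750_KO libraries lay below all controls. It fell by 1.75 ± 0.20 on the log2 scale (SE, limma adjusted p = 0.0033), and with the group alone the difference was -1.74 ± 0.23 (adjusted p = 0.104). The summed level of 4 endothelial markers was 51.9 to 147 per M in Zfp750_KO and 57.4 to 133 per M in control, and among them Tek fell by 1.43 ± 0.26 on the log2 scale with the score (SE, limma adjusted p = 0.0211), a call lost in 6 of 17 alternative settings. The part of endothelial cells in the Ackr1 result was not tested.

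Of 23 inducers and signalling genes of neutrophil chemokines 19 were tested, and with the score 1 rose and none fell, where 3.54% of all genes passed. It was Il1b, an inflammatory cytokine of myeloid cells, by 0.94 ± 0.16 on the log2 scale (SE, limma adjusted p = 0.0155), with overlapping groups and no call without Zfp750_KO 2M, control 4M, control 7F or the 3 libraries of lowest score. Il17a, the T cell cytokine that induces Cxcl1 and Cxcl5, was at normalized counts of 5.2, 11.6, 87.9 and 12.4 in Zfp750_KO libraries 1M, 2M, 3F and 6F, against 0, 7.88 and 24.7 in control libraries 4F, 4M and 7F. The groups overlapped, and Zfp750_KO 3F was the highest. Il36g, below the filter and not tested, was at 28.1, 7.73, 22.5 and 6.89 in Zfp750_KO libraries 1M, 2M, 3F and 6F. It was at 0, 0 and 3.37 in control libraries 4F, 4M and 7F, so its groups did not overlap. Those of Il17f and Il17c, also below the filter, overlapped. The NF-kappaB regulators Nfkbiz and Nfkbia had log2 differences of 0.03 ± 0.18 and 0.16 ± 0.15 with the score (SE, limma adjusted p = 0.961 and 0.676). The medians of this list were 0.13 in both fits, against 0.02 over all tested genes. Of 9 processing and binding genes 1 rose, Mmp8, tested only through its Zfp750_KO libraries, and none fell, where 1.37% of all genes rose and 2.18% fell. Csf3, the growth factor of neutrophils, was at 10.4, 13.5, 21.4 and 23.4 in Zfp750_KO libraries 1M, 2M, 3F and 6F, against 6.97, 9.19 and 7.87 in control libraries 4F, 4M and 7F, and with a log2 difference of 0.50 with the score it did not pass (SE 0.22, limma adjusted p = 0.284), although each Zfp750_KO library was above each control. It too met the filter through Zfp750_KO libraries alone.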

How the data were processed

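The authors deposited 1 table of normalized counts, a signal per gene and library and not raw counts. TopHat2 2.1.0 and Partek 9.0.20.0202 are named per the submitters' processing notes. Sorted cells gave RNA by a PureLink mini kit and libraries by NEBNext Ultra II, per the labels' protocols. Neither the genome build nor a strand setting is given in the sources used here. Dividing each library's values by its smallest step gave whole reads (within 0.02) for 78.0% to 79.6% of values under 200 reads. The planned count test was therefore not run, and read numbers are values over that step. Intervals and floors cover counting error only.

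Genes at 1 per M or more in at least 3 libraries were tested with limma 3.58.1 in R 4.3.3 (eBayes with trend, Benjamini-Hochberg over all tested genes), after a check on simulated data. Columns carry the group but no replicate number. The members, lists and tests were chosen with earlier results of these data known. All members were named, and from each list the genes past the threshold in either fit (at most 4), otherwise the 2 with the highest means; other genes named were chosen after their values were seen. Alternatives were other pseudocounts, filters, scalings, variance moderation and library weights, a term for the column letters, and leaving out libraries.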

Additional observations from a re-analysis of the deposited data

Results flagged for a closer look

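The slope of Cxcl1 on the macrophage score differed between the groups, by -0.51 ± 0.10 log2 units per unit of score (SE, limma adjusted p = 0.00904), as tested by an interaction term chosen after seeing the data. Cxcl1 was at 3246 and 2696 in Zfp750_KO 1M and 2M, and at 807 and 492 in Zfp750_KO 3F and 6F, against 1287, 1105 and 1075 in control 4F, 4M and 7F. The cause was not tested. Of the 10 groups of 4 Zfp750_KO libraries, 1 for each member, none had a library apart from the others by Dixon's criterion; the groups of 3 controls were not tested.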

How the results depend on the processing

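With the group alone, the count of genes past the threshold was 0; it became 3795 with array weights and 2092 without the 3 libraries of lowest score, and stayed 0 whichever library was left out. With the score it was 643, against 1155 with array weights, 1252 with a term for the letters M and F, 9 without the 3 libraries of lowest score (1 residual degree of freedom), and 146 (without control 4M) to 1620 (without control 4F) on leaving out 1 library; it was 195 without control 7F, 350 without Zfp750_KO 2M and 393 without Zfp750_KO 3F. The slope differed in 1093 genes, against 2525 with array weights, 18 with the letter term, and 5 (without control 4F) to 1170 on leaving out 1 library, with 484 without control 4M and 664 without control 7F. It could not be fitted without the 3 libraries of lowest score.

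Cxcl5 with the score passed in all 16 alternatives in which it was tested (log2 difference 1.55 to 4.56). Wherever a filter was used, Cxcl5 met it through Zfp750_KO libraries alone, so this count adds no support. With the group alone, Cxcl2 turned to -0.70 and Cxcl14 to 0.34 with array weights, where Cxcl16 was at 0.25, Cxcr2 at 0.20 and Cxcl1 at 1.17. Without the 3 libraries of lowest score, Cxcl1 turned to -0.78 and Cxcl9 to -0.41. Leaving out 1 library gave -0.17 (without Zfp750_KO 1M; -0.08 without 2M) to 0.73 for Cxcl1, -0.14 to 1.58 for Cxcl2 and -0.86 to 0.092 for Cxcl14. With the score, Cxcl1 turned to -0.075 with array weights. Without the 3 libraries of lowest score, Cxcl1 was at -1.86, Cxcl2 at -0.91, Cxcl9 at -1.94 and Cxcl10 at 1.10, and Cxcr4 (-0.67), Cxcr6 (-1.01) and Il1b (-0.10) turned too. Leaving out 1 library gave -0.33 to 0.65 for Cxcl1 and -0.22 to 0.72 for Cxcl9. The slope difference of Cxcl10 was 0.16 with the letter term. On leaving out 1 library it was -0.62 to 1.56 for Cxcl9, -0.25 to 3.77 for Cxcl10, -0.095 to 0.26 for Cxcl16 and -0.089 to 0.32 for Cxcr2, each turned without control 4F. Cxcr2 with the score passed in 4 of 16 alternatives. The cause of these changes was not tested. No paired analysis was possible because the columns carry none of the labels' replicate numbers. Cxcl3, Cxcr2 and Cxcl5 in control rest on few reads, which limits what can be said of them.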
